A study of Mus musculus with 4 samples.

Results

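Chemokines are small secreted or membrane-bound proteins that guide moving cells, and their receptors are proteins that span the membrane and signal through Gi proteins. The genes described here are the chemokine ligand and receptor genes of the mouse, taken as every gene of the deposited table whose symbol is Ccl, Cxcl, Ccr or Cxcr with a number (and at most 1 letter for Ccl), Ackr1 to Ackr4, Cx3cl1, Xcl1 or Xcr1. The rule found 59 genes among 46946. Of these, 38 encode ligands, 17 encode signalling receptors and 4 encode atypical receptors, which bind chemokines without the usual Gi signal and often remove them. Cx3cr1, the receptor of Cx3cl1, is outside the rule and is given only beside its ligand.

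Polyadenylated RNA of 4 mouse tumours was sequenced. Per the sample labels the tumours were untreated, had the genotype K27M and came from neural stem cells carrying PDGF and K27M. K27M is the change of lysine 27 of histone H3 to methionine that marks many midline gliomas of childhood. The text for the whole series instead speaks of an injection of DIPG cells, a childhood tumour of the pons, carrying the K27M form of H3.3. The count table does not settle which is right. All 4 tumours form 1 group, named PDGFB K27M in the sample titles, and no other group is analysed here, so no comparison between groups is made. Host strain, age, the promoter behind PDGF and the number of founder cell lines are not stated. The libraries keep the column names T14, T10, T8 and TUN, which match no single sample title. Where 4 values follow each other, they are in the order T14, T10, T8 and TUN.

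In the brain, chemokines act both in development and in the traffic of immune cells. Cxcl12 guides migrating neural precursors through Cxcr4, and Cx3cl1 on neurons signals to Cx3cr1 on microglia. Many CC ligands are made by activated microglia, macrophages and endothelium and attract monocytes, while the CXC ligands that carry the motif ELR before the first cysteines attract neutrophils.

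Library totals were 21664889 to 24369339 counts. Oligodendrocyte precursor genes were high in all 4 libraries (7 genes with a summed level of 9015 to 14530 CPM, the unit that scales counts to library size). Of 16 lists of cell type and mitosis genes, the 14 microglia genes summed to 712 to 950 CPM and the 9 endothelial genes to 252.5 to 311 CPM. Neuron genes ran from 160.3 CPM in TUN to 3357 in T14, astrocyte genes from 2003 in TUN to 6768 in T14, cerebellar granule cell genes from 36.1 in T8 to 1951 in T14 and oligodendrocyte genes from 1028 in TUN to 5012 in T10. Choroid plexus genes ran from 6.07 CPM in TUN to 608 in T10. Monocyte and border macrophage genes ran from 163 CPM in T10 to 1043 in TUN and mitosis genes from 639 in T14 to 1504 in TUN. Pericyte genes ran from 149 CPM in TUN to 244 in T14, fibroblast genes from 230.2 in T8 to 349 in TUN and dendritic cell genes from 27.6 in TUN to 71.0 in T14. Neutrophil, T and NK cell, and B cell genes summed to at most 4.38 CPM in any library, and Cd3e, Cd3g, Ms4a1 and Elane had 0 counts in all 4. Of 90 marker genes tested, 30 varied more than the trend described below, beside 4.34% of all genes tested. They were all 10 neuron genes, 6 oligodendrocyte, 5 astrocyte and 3 granule cell genes, the macrophage genes Lyz2 and Arg1, and Flt3, Slco1a4, Aldh1a2 and Ttr.

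A few members carried most of the signal. In all 4 tumours 18 of the 59 genes reached 1 CPM, a share of 30.5% against 28.2% of all genes in the table. They were 11 of 38 ligands, 4 of 17 signalling receptors and 3 of 4 atypical receptors. A mean of 1 CPM was reached by 23 genes, 17 lay between 0.1 and 1 CPM, 10 lay above 0 and under 0.1 CPM, and 9 had 0 counts in every library. Per length (RPKM, which divides CPM by the kilobases of merged exons), Cxcl14 took 39.4 ± 4.68% and Cx3cl1 23.8 ± 5.35% of the summed ligand level (SD, n = 4). Among the signalling receptors Cxcr4 took 58 ± 5.83% and Ccr1 10.7 ± 4.4%. Summed ligand level differed little between libraries, at 107, 111, 89.1 and 104 RPKM. Summed signalling receptor level ran from 9.87 RPKM in T10 to 23.8 in TUN, and summed atypical receptor level from 7.52 in T8 to 24.5 in T14. Ackr1 took 58.3% of the atypical level in T14 and 27.4% in T8, and its exons overlap Cadm3, a gene on the same strand.

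**Figure D1:**
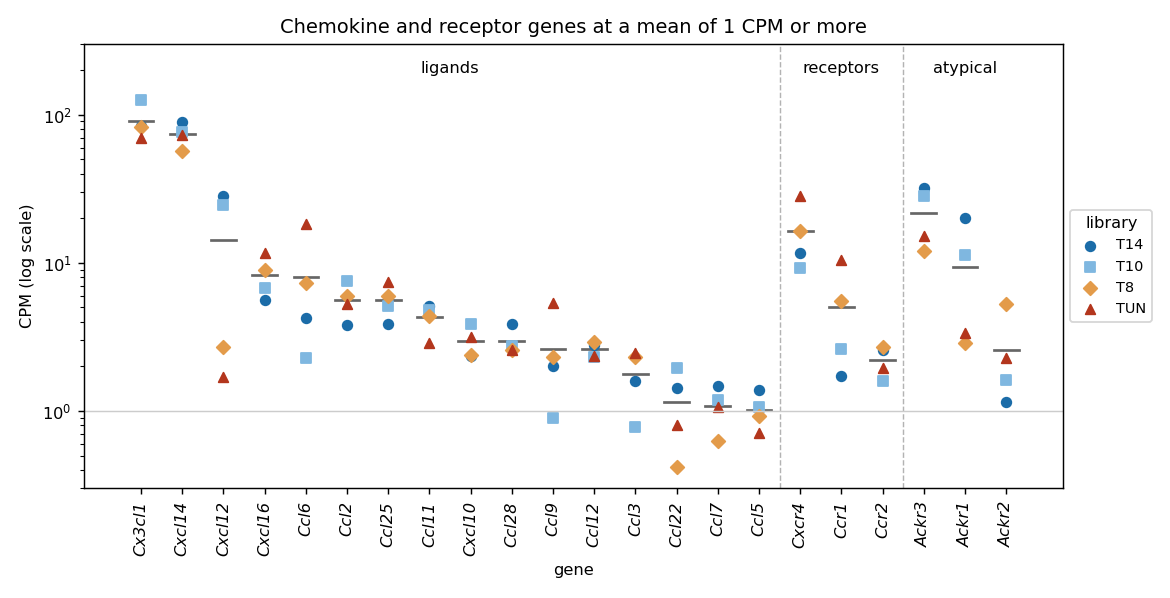
Level in CPM (log axis) of the genes described here with a mean of 1 CPM or more, grouped as ligands, receptors and atypical receptors, with 1 point per library and a bar at the mean of 4. Cx3cl1 and Cxcl14 lie highest, and Cxcl12 falls into a high pair (T14 28.1, T10 24.7) and a low pair (T8 2.72, TUN 1.70).

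To find genes that varied between tumours more than genes of like abundance, an edgeR goodness of fit was run over all 14266 genes that passed the low-count filter. It called 4.34% of them at an adjusted p under 0.05. Of the 59 members 24 passed the filter, which needs about 10 counts in each of the 4 libraries, and 1 of the 24, Cxcl12, was called. At an unadjusted p under 0.05 stood 3 of the 24 (Cxcl12, Ackr1 and Ccl6), beside 8.38% of all genes tested. Of the 18 members at 1 CPM or more in every library, 8 spanned over 2-fold between the highest and the lowest library, beside 25.9% of all such genes, and 5 spanned over 4-fold, beside 7.07%. The 5 were Cxcl12, Ccl6, Ackr1, Ccr1 and Ackr2. The median span of the 18 was 1.94-fold against 1.54-fold over all such genes. T14 and T10 were over 2-fold apart for 0 of the 18 (3.96% of all such genes) and T8 and TUN for 2 (3.71%), while T14 and TUN were over 2-fold apart for 7 (16.2%), T14 and T8 for 5 (16.6%), T10 and T8 for 6 (14%) and T10 and TUN for 5 (14%). The highest library was T14 for 6 of the 18 (29.1% of all such genes), T10 for 3 (19.7%), T8 for 3 (25.9%) and TUN for 6 (25.4%). The lowest was T14 for 6 (25.3%), T10 for 5 (26%), T8 for 3 (24.6%) and TUN for 4 (24%).

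**Figure D2:**
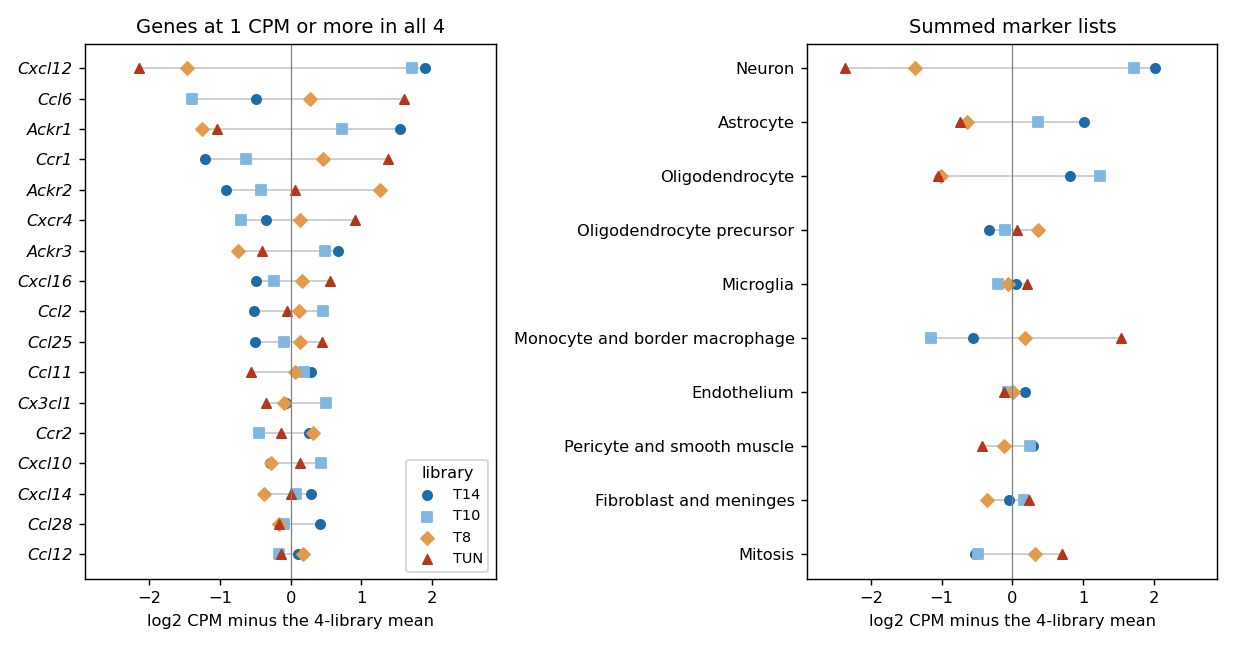
Log2 CPM minus the mean of the 4 libraries for the genes described here at 1 CPM or more in every library (left) and for the summed CPM of 10 marker lists (right), with 1 point per library. Cxcl12, at the top, spans 16.6-fold with T14 and T10 high, and Ccl6 spans 8.03-fold with TUN high. Neuron markers span 20.9-fold and monocyte and border macrophage markers 6.385-fold.

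Cxcl12 encodes the ligand known as SDF-1. The gene (ENSMUSG00000061353.11, chromosome 6, 117168535 to 117181367 in mm10) stood at 28.1, 24.7, 2.72 and 1.70 CPM. T14 and T10 were close to each other and far above T8 and TUN. Its mean was 14.3 ± 14.1 CPM (SD, n = 4), and it was the only member tested that varied more than the trend (edgeR goodness of fit, adjusted p = 0.000187, 38 counts in the lowest library). It was not among the dispersion outliers of DESeq2, the alternative tool, which held 0 of the 24 members and 78 of all 14266 genes. The neuron, astrocyte and oligodendrocyte lists were also highest in T14 and T10, with 3357, 2723, 318 and 160.3 CPM for neuron genes. Endothelial and pericyte genes, which mark cells known to make Cxcl12, summed to 311, 265, 275.5 and 252.5 CPM and to 244, 237, 185 and 149 CPM. Of the 9 endothelial genes 1 passed the goodness of fit, Slco1a4, a transporter of brain endothelium, with the same split as Cxcl12 (37.7, 35.6, 7.42 and 8.305 CPM; edgeR, adjusted p = 0.0478). Of the fibroblast and meninges genes Aldh1a2 had the same split (21.9, 24.6, 2.39 and 5.45 CPM), as had Slc22a6 at a lower level. Col1a1 had the reverse split (81.6, 108.5, 161 and 163 CPM). Col1a2, Col3a1, Dcn and Lum were lowest in T8, and the list as a whole was highest in TUN. Of the pericyte genes Pdgfrb, Rgs5 and Myh11 were higher in T14 and T10. Kcnj8 and Abcc9 were highest in T8, and Acta2 and Anpep in TUN. The part of these cells in the Cxcl12 level was not tested. In bulk RNA fewer cells of a type and less RNA per cell cannot be told apart, here and for every gene below.

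Cxcr4, the signalling receptor of Cxcl12 (ENSMUSG00000045382.6, chromosome 1, 128588199 to 128592293), stood at 11.7, 9.16, 16.3 and 28.1 CPM. It was highest in TUN and lowest in T10, a 3.07-fold span that did not pass the goodness of fit (edgeR, adjusted p = 1). Mitosis genes had TUN and T8 as their 2 highest libraries as well (639, 657, 1150 and 1504 CPM). The summed monocyte and border macrophage genes had the same order of libraries as Cxcr4 (244.5, 163, 407 and 1043 CPM). Lyz2 made up most of that sum and had that order (195, 113, 337 and 951 CPM). So had Arg1 and Ms4a7, but not the other genes of the list, among them Mrc1, Cd163 and F13a1. The part of either list in the Cxcr4 level was not tested. Ackr3, the atypical receptor that binds and removes Cxcl12 (ENSMUSG00000044337.5, chromosome 1, 90203980 to 90216751), stood at 32.0, 28.1, 11.98 and 15.1 CPM. Its higher pair of libraries was that of Cxcl12, with a 2.67-fold span that did not pass either (edgeR, adjusted p = 1).

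Per length, Cxcl12 lay below Cxcr4 in all 4 tumours, by a log2 ratio of -0.89, -0.73, -4.395 and -5.67, with a mean of -2.92 ± 2.49 (SD, n = 4). The merged exons of Cxcl12 span 8176 bases, so the per-length level is low for its counts, and in CPM the ratio was above 0 in T14 and T10. The log2 ratio of Ackr3 to Cxcr4 was 0.56, 0.72, -1.31 and -1.76, so the atypical receptor was the more abundant in 2 libraries and Cxcr4 in the other two. Its mean was -0.45 ± 1.27 per length and 0.43 in CPM, so the sign of the mean depends on the length correction. With 4 tumours a two-sided exact sign-flip test cannot reach 0.05, so no ratio is called.

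**Figure D3:**
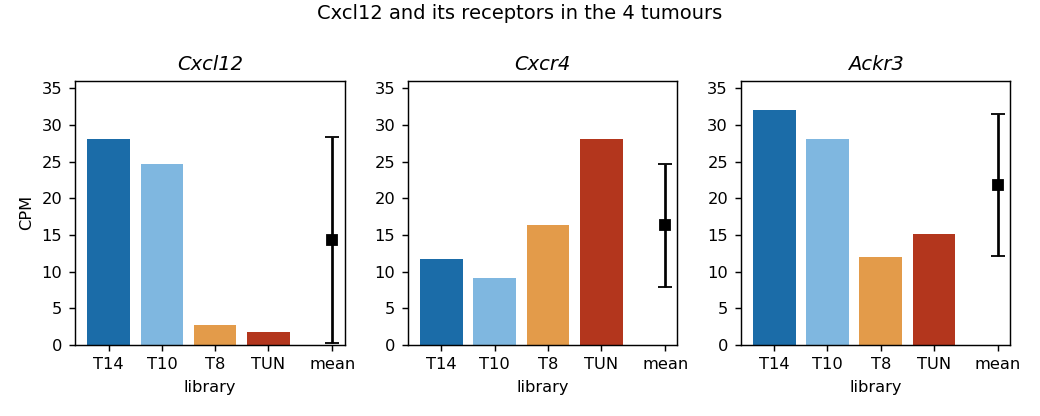
Level in CPM of Cxcl12, Cxcr4 and Ackr3 in each library (bars from 0), with the mean and SD of the 4 libraries as a square with whiskers. Cxcl12 and Ackr3 are higher in T14 and T10 (28.1 and 24.7, 32.0 and 28.1 CPM) and Cxcr4 is highest in TUN (28.1 CPM).

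The sequences before the transcription start of these genes differ in their content of CG, the dinucleotide that DNA methylation acts on and that Polycomb-bound promoters are rich in. RefSeq promoter entries (GRCm38.p6) matched 44 of the 59 genes, and 41 began within 1000 bases of the start in the deposited table. Over the 250 bases before the RefSeq start (CG reads the same on both strands), the 41 held a median of 3 CG and all 32851 RefSeq promoters a median of 6. The 5 members with an entry and a mean of 10 CPM or more lay above that median, Cxcr4 with 19, Cxcl14 with 16, Cx3cl1 and Cxcl12 with 14 each and Ackr3 with 7. This did not hold for the next in level, where Ackr1 held 3, Ccl6 2 and Ccr1 1, while Ccl25 held 45, a count that 0.405% of all promoters reach. The 14 members at 1 CPM or more in every library held a median of 4.5, and 6 of them (42.9%) held 7 or more CG, against 46.3% of all promoters and 4 of the 27 other members. Shown are 3 of the CG-rich set and a pair of ligand and receptor genes, Ccl6 and Ccr1, with 2 and 1 CG, each 5′ to 3′ on the strand of the gene with CG in capitals. The stretches are chr6:117168285-117168534 (plus strand), chr1:128592300-128592549 (minus), chr13:56296552-56296801 (minus), chr11:83593088-83593337 (minus) and chr9:123968693-123968942 (minus).
Cxcl12: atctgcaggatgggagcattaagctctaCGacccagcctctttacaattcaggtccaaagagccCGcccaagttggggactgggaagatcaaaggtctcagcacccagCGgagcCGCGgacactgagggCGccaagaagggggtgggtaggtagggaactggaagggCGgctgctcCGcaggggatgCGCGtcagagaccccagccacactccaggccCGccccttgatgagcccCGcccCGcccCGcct
Cxcr4: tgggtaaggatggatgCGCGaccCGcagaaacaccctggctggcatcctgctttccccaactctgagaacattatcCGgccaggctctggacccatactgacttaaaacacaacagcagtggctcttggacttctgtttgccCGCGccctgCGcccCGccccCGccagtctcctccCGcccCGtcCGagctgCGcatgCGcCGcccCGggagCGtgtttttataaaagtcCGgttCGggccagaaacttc
Cxcl14: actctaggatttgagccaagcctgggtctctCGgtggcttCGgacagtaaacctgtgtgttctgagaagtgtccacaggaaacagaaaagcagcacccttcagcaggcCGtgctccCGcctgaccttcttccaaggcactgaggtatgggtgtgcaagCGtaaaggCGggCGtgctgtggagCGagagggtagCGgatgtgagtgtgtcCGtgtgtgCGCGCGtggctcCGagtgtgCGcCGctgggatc
Ccl6: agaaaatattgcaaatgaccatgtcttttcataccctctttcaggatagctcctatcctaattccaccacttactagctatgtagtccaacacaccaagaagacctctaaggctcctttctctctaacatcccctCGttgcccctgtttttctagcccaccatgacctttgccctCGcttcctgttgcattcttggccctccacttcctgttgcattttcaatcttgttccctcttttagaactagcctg
Ccr1: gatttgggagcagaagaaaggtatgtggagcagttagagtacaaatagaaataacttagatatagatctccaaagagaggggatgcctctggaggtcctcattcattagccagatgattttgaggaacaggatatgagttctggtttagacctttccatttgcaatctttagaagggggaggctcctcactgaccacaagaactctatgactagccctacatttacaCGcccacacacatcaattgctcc
CG content is a description of the reference sequence. Methylation and histone marks of these promoters are not analysed here.

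**Figure D4:**
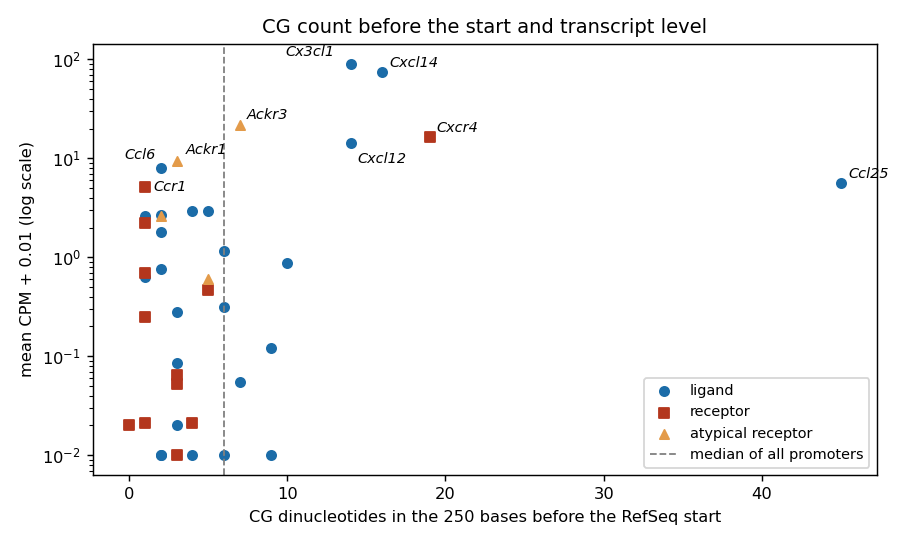
CG dinucleotides in the 250 bases before the RefSeq start (x axis) against the mean of 4 libraries in CPM plus 0.01 (log y axis) for the 41 genes with a usable promoter entry, with the median of all RefSeq promoters (6) as a dashed line. The 5 named genes above 10 CPM lie at 7 to 19 CG, and Ccl6, Ccr1 and Ackr1 lie at 5 CPM or more with 1 to 3 CG.

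Cx3cl1 was the member with the most counts. It encodes fractalkine, a ligand held on the membrane by a mucin stalk (ENSMUSG00000031778.12, chromosome 8, 94772009 to 94782423). It stood at 84.3, 125.6, 83.0 and 69.9 CPM, with T10 alone above the others. The span of 1.80-fold did not pass the goodness of fit (edgeR, adjusted p = 1). Neuron genes, which mark a known source of Cx3cl1, spanned 20.9-fold. The part of neurons in the Cx3cl1 level was not tested. Its receptor Cx3cr1 stood at 77.4, 68.6, 59.0 and 73.4 CPM in the same order. Per length the 2 genes lay within 1 log2 unit of each other in every library, at a log2 ratio of Cx3cl1 to Cx3cr1 of 0.14, 0.88, 0.50 and -0.06, a mean of 0.37 ± 0.41 (SD, n = 4). The sheddases that release Cx3cl1 and Cxcl16 from the membrane were present in every library, Adam10 at 217 ± 21.5 CPM and Adam17 at 88.6 ± 18.7 CPM.

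Cxcl14, a CXC ligand made by many epithelia and by brain interneurons (ENSMUSG00000021508.10, chromosome 13, 56288647 to 56296551), had the highest level per length, 40.6 ± 7.46 RPKM against 24.5 ± 6.52 for Cx3cl1 (SD, n = 4). It stood at 89.4, 77.0, 56.4 and 73.5 CPM. The 4 libraries lay within 1.58-fold of each other. Cxcl16, a membrane-bound ligand, stood at 5.64, 6.72, 8.88 and 11.6 CPM, and was highest where Ccl6 and Ccr1 were highest. Its receptor Cxcr6 had 1 count in each library. Exons of Cxcl16 overlap Zmynd15, which is on the other strand and had at most 27 counts. Cxcl13, the ligand of Cxcr5 on B cells, had 13, 28, 26 and 4 counts in T14, T10, T8 and TUN, and Cxcr5 had 4 to 7. Cxcl17 had 0 counts in all 4 libraries.

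The CC ligands Ccl6 and Ccl9 and their receptor Ccr1 were highest in TUN. Ccl6 (ENSMUSG00000018927.3, chromosome 11, 83587882 to 83593087) stood at 4.26, 2.28, 7.29 and 18.3 CPM. Ccl9 stood at 1.997, 0.90, 2.30 and 5.36 CPM and Ccr1 at 1.73, 2.61, 5.53 and 10.4 CPM in the same order. T10 was lowest for both ligands, T14 for the receptor, and TUN was the highest library for all 3. None passed the goodness of fit (edgeR, adjusted p = 0.241 for Ccl6, 0.852 for Ccl9 and 0.624 for Ccr1). The summed monocyte and border macrophage genes had the same order of libraries as the 2 ligands (T10, T14, T8, TUN from low to high), at 244.5, 163, 407 and 1043 CPM. Lyz2 made up most of that sum (951 CPM in TUN), and only Lyz2, Arg1 and Ms4a7 of the list had that order. All 6 of that list's genes at 1 CPM or more in every library were highest in TUN or T8. Ly6c2, a marker of inflammatory monocytes, was highest in T14 (1.91 CPM), and Chil3 had at most 0.18 CPM. Microglia genes ran from 712 CPM in T10 to 950 in TUN. The part of either cell type in these levels was not tested.

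The inflammatory ligands Ccl3, Ccl4 and Ccl5 were low. Ccl3, which binds Ccr1, stood at 1.60, 0.77, 2.30 and 2.46 CPM, Ccl4 at 0.36, 0.37, 1.17 and 0.94 CPM and Ccl5 at 1.38, 1.06, 0.92 and 0.71 CPM. Ccl3 and Ccl4 were higher in T8 and TUN than in T14 and T10. Ccl5, a ligand known from T cells, was highest in T14 and lowest in TUN, on 16 to 31 counts. Per length Ccl3 lay above Ccr1 in 3 of 4 libraries (log2 ratio 0.54 ± 0.79, SD, n = 4).

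The monocyte attractants Ccl2, Ccl7 and Ccl12 and the eotaxin Ccl11 lie next to each other on chromosome 11, in a cluster of 6 members from 82035571 to 82305690. Ccl2 stood at 3.82, 7.49, 5.95 and 5.27 CPM, and Ccl12 at 2.80, 2.32, 2.93 and 2.37 CPM. Ccl12 had the narrowest span of the 18 members at 1 CPM or more in every library, 1.26-fold. Ccl7 stood at 1.47, 1.18, 0.63 and 1.07 CPM and Ccl11 at 5.15, 4.80, 4.40 and 2.86 CPM. The neighbours Ccl8 and Ccl1 were lower, Ccl8 with 10, 7, 5 and 35 counts and Ccl1 with 1 count in all. Ccl8 was highest in TUN, as were Ccl6 and Ccl9, but too low to be tested. A second cluster on chromosome 11, from 83525778 to 83664683, holds Ccl5, Ccl9, Ccl6, Ccl3 and Ccl4, with mean levels of 0.87 to 4.48 RPKM. Of its 5 genes Ccl6 alone reached 1 CPM in every library.

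Ccr2, the receptor of Ccl2, Ccl7 and Ccl12 on inflammatory monocytes, stood at 2.57, 1.59, 2.68 and 1.97 CPM. It had 39 to 64 counts a library. Its highest library was T8, while the summed monocyte and border macrophage genes, mostly Lyz2, were highest in TUN. Single genes of that list differed, with Cd163 and Itga4 highest in T8 and Mrc1 and F13a1 in TUN. Per length the 3 ligands exceeded Ccr2 in all 4 libraries. The log2 ratios were 3.49 ± 0.61 for Ccl2, 3.49 ± 0.12 for Ccl12 and 1.68 ± 0.62 for Ccl7 (SD, n = 4). The Ccr2 gene model counts 6393 bases of merged exons, which lowers its per-length level. Ccr3, the receptor of Ccl11, had 1 count in all, although Ccl11 had 64 to 118 counts a library.

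The receptors of several other ligands had few or no counts. Ccl25, which acts through Ccr9 in gut and thymus, stood at 3.86, 5.13, 5.99 and 7.41 CPM, and Ccr9 had 1 to 8 counts. Ccl28, an epithelial ligand of Ccr10, stood at 3.86, 2.73, 2.60 and 2.59 CPM, and Ccr10 at 0.44, 0.73, 0.75 and 0.89 CPM, on 10 to 20 counts. Per length these 2 genes were closer, at log2 ratios of 1.67, 0.66, 0.57 and 0.36. Cxcl10, the interferon-induced ligand of Cxcr3, stood at 2.35, 3.87, 2.39 and 3.17 CPM, while Cxcr3 had 0, 1, 1 and 3 counts and the other Cxcr3 ligands Cxcl9 and Cxcl11 had 1 to 3 and 3 to 12 counts. Cxcl10 exons overlap Art3 on the other strand, which had 23 to 90 counts. The strand setting of the counting is not stated, so part of the Cxcl10 count is uncertain. Ccl22 stood at 1.42, 1.95, 0.42 and 0.80 CPM and Ccl17 had 3 to 8 counts, and their receptor Ccr4 had 0. Ccl22, Cx3cl1 and Ccl17 are neighbours on chromosome 8 (94745590 to 94812035), where Cx3cl1 was 24.5 RPKM and its neighbours 0.49 and 0.52 RPKM. A count of 0 allows up to 3 counts, at most 0.134 CPM in any library.

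The neutrophil-attracting CXC ligands with the ELR motif and their receptors were near the floor. Cxcl1 stood at 0.53, 1.06, 0.63 and 1.25 CPM, and none of the 5 genes of the class reached 1 CPM in every library. Cxcl5 had 24, 7, 1 and 4 counts, Cxcl2 2, 1, 1 and 6, Cxcl3 2, 0, 0 and 2, and Cxcl15 had 0. The receptors had 1 to 8 counts (Cxcr2) and 1 count in all (Cxcr1), and the neutrophil markers S100a8 and S100a9 had means of 0.74 and 0.73 CPM. An NF-kappaB consensus (GGG, any 2 bases, then TTTCC), searched on both strands of the 250 bases before the start, stood in 6 of the 41 member promoters (14.6%) and in 1.41% of all RefSeq promoters. It was found for Cxcl1 and Cxcl2, with 2 matches each, and for Cxcl3, Ccl20, Ccl9 and Ccr3, and for 0 of the 14 members at 1 CPM or more in every library. The match is to letters only and says nothing of binding. The stretches of Cxcl1 (chr5:90891136-90891240) and Cxcl2 (chr5:90903782-90903870), both on the plus strand, are shown up to the base before the gene, with the matches in capitals.
Cxcl1: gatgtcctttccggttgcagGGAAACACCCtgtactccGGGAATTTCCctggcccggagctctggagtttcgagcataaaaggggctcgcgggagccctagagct
Cxcl2: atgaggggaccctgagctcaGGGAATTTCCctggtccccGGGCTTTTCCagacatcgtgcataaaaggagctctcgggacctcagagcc
The TATA letters TATAAA, on the strand of the gene, stood in 11 of the 41 (26.8%) against 7.59% of all promoters, among them Cx3cl1, Ackr3 and Cxcr4.

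Of the atypical receptors besides Ackr3, Ackr1 binds many inflammatory CC and CXC ligands, on red cells, venules and Purkinje neurons. Ackr1 (ENSMUSG00000037872.5, chromosome 1, 173331886 to 173333750) stood at 20.1, 11.4, 2.89 and 3.35 CPM. T14 and T10 lay above T8 and TUN, a span of 6.96-fold that did not pass the goodness of fit (edgeR, adjusted p = 0.134). Its exons overlap those of Cadm3, an adhesion gene of neurons on the same strand with 10102, 4871, 1009 and 1119 counts in the same order, so reads of the 2 genes may have been mixed, and this was not tested. Neuron and cerebellar granule cell genes had the same 2 highest libraries. Ackr2, which scavenges inflammatory CC ligands, stood at 1.15, 1.63, 5.24 and 2.28 CPM. It was the one member at 1 CPM or more in every library with over 4-fold span and its highest value in T8 (edgeR, adjusted p = 1). Ackr4, which takes up Ccl19, Ccl21 and Ccl25, had 31, 18, 0 and 6 counts and overlaps Acad11 on the other strand, which had 191 to 471 counts.

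The remaining members were at or near 0. The lymph node ligands Ccl19, Ccl21a and Ccl21b, with Ccl20, Ccl26, Ccl27b, Cxcl15, Cxcl17 and Ccr4, had 0 counts in every library. Of these Ccl19, Ccl21a, Ccl21b and Ccl27b lie among near-identical copies on chromosome 4, where counting can drop or split reads, so their 0 is uncertain. Ccr7, the receptor of Ccl19 and Ccl21, had 2, 0, 0 and 2 counts. Ccr8, a receptor of T helper cells, Ccl1, Xcl1 and Ccr3 each had 1 count in 1 library. Xcr1, a marker of cross-presenting dendritic cells, had 10, 6, 16 and 11 counts, Ccr6 22, 26, 12 and 4, Ccl27a 12, 6, 3 and 7, and Ccl24 6, 3, 2 and 4.

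Most genes of a chemokine pathway list, all outside the naming rule, were detected. Of 43 genes of the pathway list, which holds no member, 35 were at 1 CPM or more in every library, beside 28.2% of all genes in the table. Of these 43 genes 37 passed the filter. The edgeR goodness of fit called 0 of the 37, beside 4.34% of all genes tested. At an unadjusted p under 0.05 stood 1 of the 37 (Gpr182), beside 8.38%. The Gi and Rac genes led per length, Gnai2 at 185 ± 35.6 RPKM, Gnb1 at 168 ± 21.9 and Rac1 at 89.3 ± 7.71 (SD, n = 4). Dpp4, the protease that trims Cxcl12 and Cxcl10, stood at 1.91, 1.95, 0.34 and 0.36 CPM. Its 2 higher libraries were those of Cxcl12. Pf4, a CXC ligand of platelets outside the naming rule, stood at 0.44, 0.37, 0.42 and 2.10 CPM, and Ppbp at most 0.49 CPM. Ccrl2, a related receptor that does not signal, was at 1.99 ± 0.28 CPM. The inflammatory cytokines Tnf, Il1b and Il6 had means of 0.46, 1.37 and 0.21 CPM.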

How the data were processed

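The deposited table gives whole-number read counts per gene, made by the authors. The submitters' processing notes name STAR, featureCounts and the build mm10. Genes follow GENCODE vM8 by the table's name. Tool versions, the strand setting and the rule for multiply mapped reads are not stated. Symbols matched 46451 of 46946 genes. The 4 columns match no sample title, so they entered as 4 unnumbered replicates of 1 group. Separate animals are not stated, so the p-values measure only the spread between these samples. Every column of sample values was used (0 left aside).

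Counts were scaled by TMM (edgeR 4.0.16, R 4.3.3, factors 0.971, 1.01, 0.988 and 1.03 for T14, T10, T8 and TUN) and given as CPM, or as RPKM with the merged exon length of the table. The floor of 3 counts covers counting error alone, as there were no molecular identifiers. Genes more variable than the trend were sought with edgeR's glmFit (1 mean per gene, trended dispersion), comparing each deviance with chi-square on 3 degrees of freedom. The p-values were adjusted by Benjamini-Hochberg over all 14266 genes left by edgeR's filterByExpr. The step was tested on simulated data. Ratios used log2(RPKM + 0.1). Alternatives were DESeq2 1.42.0, other size factors, filters, thresholds and leaving out each library.

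The members and gene lists were chosen with earlier results of these data known. Named with values were members at a mean CPM of 1 or more or past the goodness of fit, the others by range, with fixed genes of the pathway list. The rule also took the called and 3 most abundant genes of each marker list, which are given here as sums, with single genes only beside a result. Some genes of the lists are not reported here.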

Additional observations from a re-analysis of the deposited data

Results flagged for a closer look

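Dixon's test for 1 library apart from the rest was run on the 40 members at a mean CPM of 0.1 or more and the 14 ratios of 2 genes that both reached a mean CPM of 1. Chance flags about 1 in 20 groups, and 2 of the 54 were found. Ccl28 stood at 3.86 CPM in T14 against 2.59 to 2.73 in the others, a 1.49-fold span on 58 to 87 counts. Ccr9 stood at 0.326 CPM in T10, which is 8 counts, against 1 or 2 counts in the others, and its exons overlap Slc6a20a on the other strand, which had 152, 212, 5 and 2 counts in T14, T10, T8 and TUN.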

How the results depend on the processing

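Cxcl12 was the one member called by the edgeR goodness of fit under every alternative scaling, filter and threshold run and without any 1 library, with an adjusted p of 0.000187 to 0.0203 over 8 alternatives. DESeq2's dispersion outliers, 78 of 14266 genes, held 0 of the 24 members, against 1 of 24 in edgeR and 3 of 24 at an unadjusted p under 0.05 there. The cause was not tested. The members at 1 CPM or more in every library numbered 18, and 14 to 25 under other thresholds, scalings and left-out libraries. The mean log2 ratio of Ackr3 to Cxcr4 turned from -0.45 to 0.43 in CPM, by the gene lengths, and was -0.01 without TUN. Cxcl12 to Cxcr4 moved from -2.92 to -0.96 in CPM, to -3.65 without T10 and to -2 without TUN, and Cx3cl1 to Cx3cr1 stayed between 0.19 and 0.51. For the 23 members at a mean of 1 CPM or more, 314 alternatives covered the mean level and the goodness-of-fit p. Every mean stayed within 1 SD and every p stayed on the same side of the threshold. There was no p for Ccl22, which was under the low-count filter. Leaving out 1 of 4 libraries cannot move a mean by 1 SD, so for mean levels those alternatives could not fail and show nothing. No paired analysis was possible because there is 1 group. Members under the low-count filter, 35 of 59, were not tested, so depth limits what can be said of them.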
